A study of Rattus norvegicus with 24 samples.

Results

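Skin that received an intradermal (ID) injection of a gel was compared with skin that received an intradermal injection of saline, gene by gene, by RNA sequencing of whole tissue. The members were all 12 libraries whose titles name an intradermal injection, 6 of gel and 6 of saline, out of 24 libraries in the study. The other 12 came from gel or saline placed subcutaneously (SC). All were dorsal skin of Sprague-Dawley rats taken 7 days after the injection. The study's title speaks of a biodegradable polymer and its design text calls the material T-gel; the label of the gel group itself gives only the site, and the sources used here do not give the polymer, dose, sex or age. The labels do not say whether the replicates of a group came from separate animals, so the p-values measure the spread between these samples, which may be technical. Each tissue piece held several layers, and in such bulk RNA fewer cells of a type and less RNA per cell cannot be told apart.

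Material placed in tissue meets a sequence of events known as the foreign body response. Proteins coat the surface, neutrophils and then monocytes enter, monocytes become macrophages that engulf what they can and may fuse into giant cells around what they cannot, and fibroblasts lay down matrix. Macrophages digest engulfed material in lysosomes, acid compartments filled with hydrolases and acidified by a proton pump. The study asked how the skin response depends on where the gel is placed, and the comparison here addresses the intradermal site.

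Library totals ran from 14024353 to 18821730 counts over the 24 libraries. Levels below are counts per 1000000 counts of the library (CPM) with TMM library factors, given as lowest to highest of 6 libraries with the median or as mean ± SD (n = 6), and differences are log2 fold changes of gel over saline ± SE. A gene was called by the quasi-likelihood test of edgeR, Benjamini-Hochberg adjusted over the 14763 genes tested, at an adjusted p under 0.05. Of these genes 73.6% were called, 36.6% higher in gel and 37.0% lower, and the median over all of them was -0.01 log2 units. Counts within a gene group are to be read against those shares. Of the genes whose range in each group is given below, the groups overlapped for C1qa, Dcn, Krt6a, Ldha, Pecam1 and Tnc and were separate for the others. Over all tested genes 29.1% had every gel library above every saline library and 27.5% every gel library below. The gel libraries parted from the saline libraries on the first principal component (83.5% of the variance). Gel scores ran from 42.97 to 137.08 and saline scores from -104.67 to -84.09. ID gel 5 lay nearest to saline and ID gel 2 farthest. Red cell markers (Hba-a2 and Alas2) varied within both groups, at 800 to 9330 CPM in gel and 1280 to 10200 in saline. Correlations between replicates were 0.933 to 0.989 in gel and 0.972 to 0.991 in saline. The tissue label held in saline, where keratinocyte markers (Krt5, Krt1, Krt10 and loricrin) summed to 4630 to 9130 CPM and fibroblast markers to 21000 to 45200. Skeletal muscle markers summed to 38800 to 49800 CPM there, so the pieces also held muscle.

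The genes that differed most relative to their spread were not the ones with the largest fold changes. Among the rises that led this ranking were Ero1a, Pld1, Pygl, Steap2, Sbno2, Emilin1 and Tmem268. Ero1a (chromosome 15, 18492945 to 18530478), the oxidase that drives disulfide bond formation in the endoplasmic reticulum, stood at 369 to 801 CPM in gel (median 590) and 48.1 to 56.6 in saline (median 54.3), a rise of 3.44 ± 0.14 log2 units, adjusted p = 6.35e-14. Pygl, the liver form of glycogen phosphorylase, was at 137 to 242 CPM in gel (median 198) and 30.9 to 37.7 in saline (median 36.3), a log2 fold change of 2.46 ± 0.11. Steap2, a metalloreductase, stood at 107 to 174 CPM in gel (median 155) and 18.6 to 23.1 in saline (median 19.7) and rose by 2.84 ± 0.13 log2 units, adjusted p = 9.5e-14. In each of these genes the lowest gel library was well above the highest saline library, and the saline libraries lay close together. The ranking took only genes without overlap and favours a small spread, so these traits follow from the selection. Pld1, a phospholipase that makes phosphatidic acid, rose by 2.32 ± 0.10. Sbno2, a corepressor induced by interleukin 10 in myeloid cells, rose by 1.81 ± 0.08, and Emilin1, a glycoprotein of elastic fibres, by 3.16 ± 0.14.

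The falls that led the same ranking were Bcl6, Zfyve9, Tmcc3, Gnpat, Acss1, Cnst, Pde4d and Trim16. Bcl6, a transcriptional repressor, stood at 38.5 to 46.9 CPM in gel (median 43) and 146 to 186 in saline (median 150) and fell by 1.88 ± 0.10 (adjusted p = 5e-13). Zfyve9, also called SARA, presents SMAD proteins to the TGF-beta receptor, and it was at 32.2 to 36 CPM in gel (median 35.5) and 74.6 to 82.6 in saline (median 77.1), a log2 fold change of -1.16 ± 0.06. The gel values of Zfyve9 lay in a narrow band, a trait that the ranking favours. Gnpat, which starts ether lipid synthesis in peroxisomes, fell by 2.00 ± 0.11. Acss1, the mitochondrial acetyl-CoA synthetase, fell by 3.38 ± 0.19, and the cyclic AMP phosphodiesterase Pde4d by 2.82 ± 0.17.

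**Figure D1:**
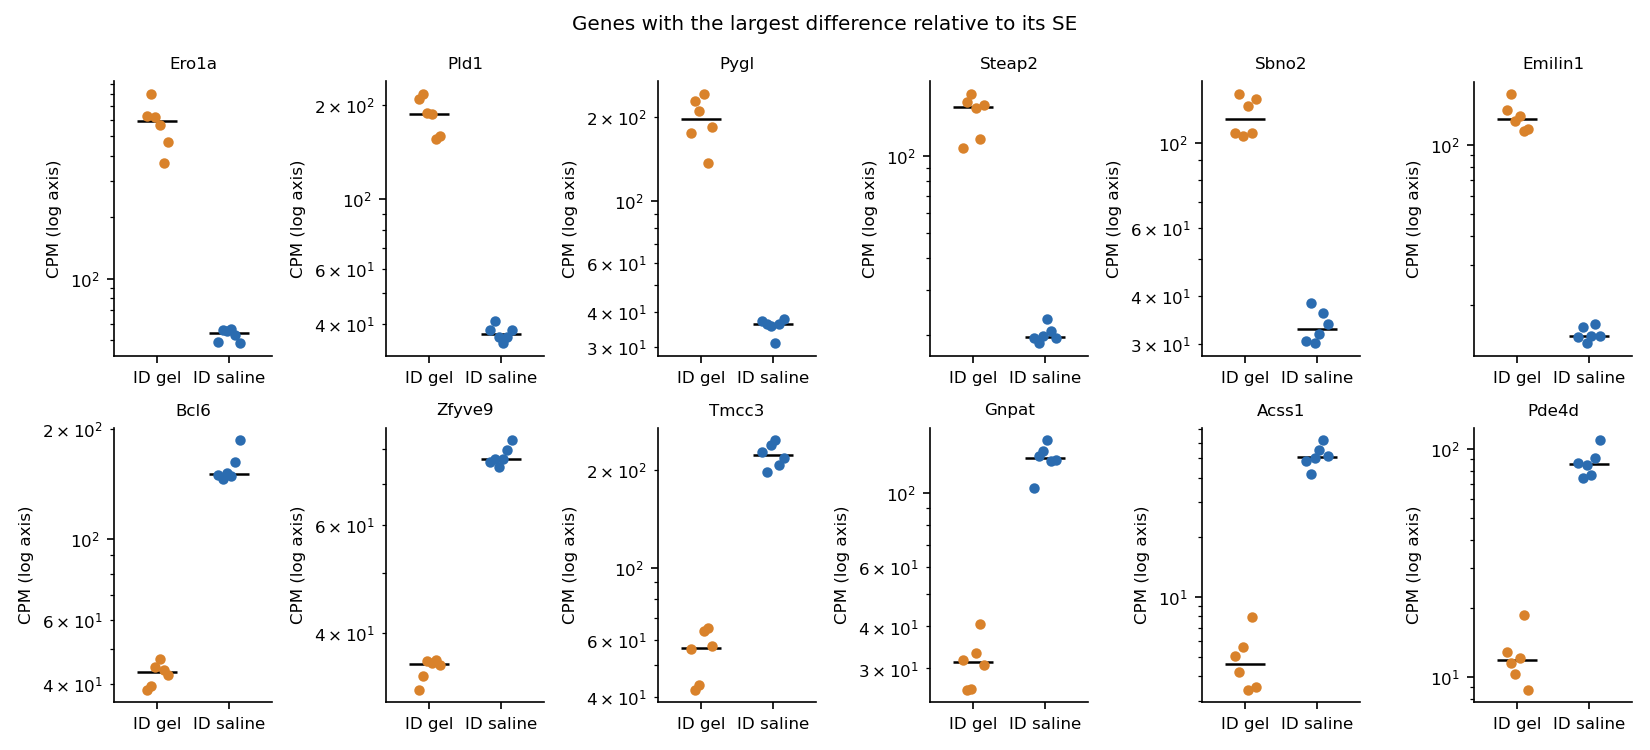
CPM on a log axis for 12 genes in each of the 6 ID gel libraries (orange) and 6 ID saline libraries (blue), with a bar at each group's median. The upper row shows genes that rose and the lower row genes that fell, all chosen among genes whose groups do not overlap.

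The most abundant messages differed between the groups. The 5 genes that gained most in mean CPM were Gpnmb, Fn1, Ctsb, Lyz2 and Apoe. Gpnmb (chromosome 4, 78010197 to 78049367), a transmembrane glycoprotein of lysosome-laden macrophages, stood at 13800 to 20100 CPM in gel (median 15100) and 176 to 315 in saline (median 220), a rise of 6.17 ± 0.49 log2 units, adjusted p = 1.12e-10. By FPKM, which is per kilobase of gene, it ranked 5 of all genes in gel and 666 in saline. Fth1, the heavy chain of the iron store ferritin, ranked 2 in gel, at a mean of 6690 ± 888 FPKM against 941 ± 83.4 in saline. Ctsb, a lysosomal cysteine protease, was at 9310 to 11000 CPM in gel (median 9760) and 700 to 1170 in saline (median 814), and Lyz2, the lysozyme of phagocytes, at 6200 to 10700 CPM in gel (median 7110) and 232 to 434 in saline (median 340). The gel libraries lay close together for these 3 genes, with the highest under 2 times the lowest. Apoe, a lipid carrier, rose by 1.94 ± 0.17 and Fn1, fibronectin, by 2.57 ± 0.29.

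The losses in mean CPM were led by skeletal muscle genes. Myh4, a fast myosin heavy chain, was at 0.0598 to 4780 CPM in gel (median 200) and 17600 to 22200 in saline (median 20800), and Ca3, a muscle and fat carbonic anhydrase, at 312 to 2050 CPM in gel (median 558) and 7210 to 8860 in saline (median 7940). Myh4 spanned several orders of magnitude among the gel libraries. Acta1, skeletal muscle actin, was at 0.18 to 5570 CPM in gel (median 250) and 12600 to 16900 in saline (median 14300). It did not overlap between the groups, yet with that spread it was not called (-3.69 ± 1.71 log2 units, adjusted p = 0.0558), while without ID gel 5 it was (-5.88, adjusted p = 0.00854), as it was with all libraries by DESeq2 (-3.74, adjusted p = 0.0163). Myh4 was called (-4.39 ± 1.75 log2 units, adjusted p = 0.0272), but not without ID gel 1 or without ID gel 3 (-4.29 to -4.23, adjusted p = 0.0502 to 0.0518). Another loss was in a gene that the file describes as the calcium pump of the sarcoplasmic reticulum ATP2A1, at 0.962 to 3630 CPM in gel (median 159) and 11600 to 16600 in saline (median 14300) under the name AABR07005775.1. The 5 muscle markers together summed to 1110 CPM in ID gel 1, 34.3 in ID gel 2, 1730 in ID gel 3, 8.58 in ID gel 4, 13000 in ID gel 5 and 8.62 in ID gel 6. ID gel 2, 4 and 6 thus held almost no muscle message and ID gel 5 the most. The muscle list of energy and calcium genes fell in all 25 tested members (median -4.19).

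**Figure D2:**
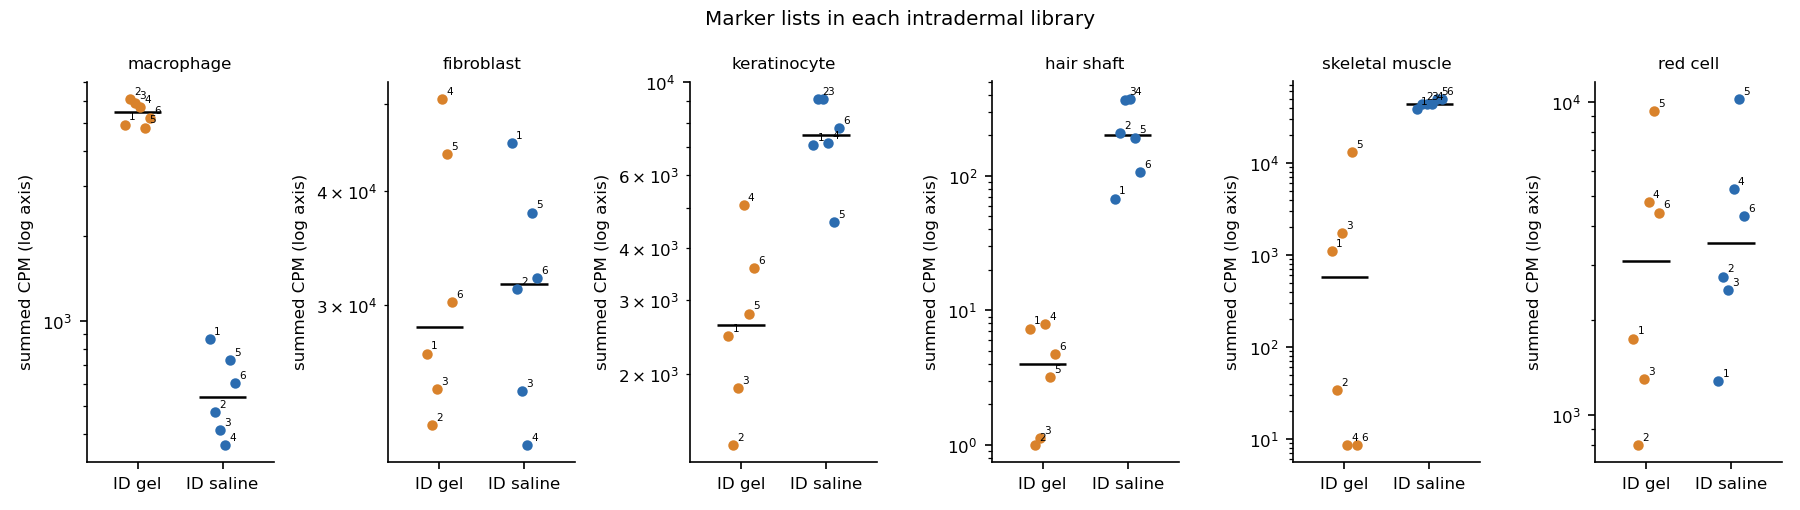
Summed CPM on a log axis in each of the 12 ID libraries for 6 marker lists, with ID gel in orange and ID saline in blue and the replicate number beside each point. Macrophage markers are higher in every gel library and hair shaft and skeletal muscle markers lower, keratinocyte markers overlap through ID gel 4 and ID saline 5, and the muscle sum spreads from 8.58 to 13000 within gel.

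Genes of digestion rose as a block. Of 25 lysosomal hydrolase genes 24 rose and 0 fell, with a median of 2.10 log2 units. Ctsz, a carboxypeptidase, rose by 4.34 ± 0.30, Lgmn, the asparagine endopeptidase legumain, by 3.89 ± 0.30 and Ctsd, an aspartic protease, by 3.12 ± 0.22. Ctsc, which activates granule proteases of neutrophils and mast cells, was the member not called (-0.20 ± 0.13 log2 units, adjusted p = 0.179), although without ID gel 1 it was called lower (-0.32, adjusted p = 0.0211). The summed level of the list was 25000 to 29800 CPM in gel and 3460 to 5470 in saline. Of 16 genes of the vacuolar proton pump 15 rose (median 1.43). The size of the rise differed between subunit isoforms. Atp6v0d2, the d subunit of osteoclasts and macrophages, was at 8.95 to 22.5 CPM in gel (median 12.7) and 0 to 0.0713 in saline (median 0), a log2 fold change of 8.85 ± 0.77, while the widely expressed Atp6v0d1 rose by 1.41 ± 0.09. Tcirg1, the a3 subunit of osteoclasts, rose by 4.67 ± 0.33 and the a1 subunit gene Atp6v0a1 by 1.33 ± 0.10. Atp6v1b2, the B subunit of most cells, rose by 3.33 ± 0.29, and Atp6v1b1, the B subunit of kidney and inner ear, was not called (0.29 ± 0.35). The macrophage markers Cd68, Adgre1, Csf1r, Mpeg1 and Cd14 were also called higher, and C1qa was not. Together these markers summed to 4820 to 6090 CPM in gel and 365 to 864 in saline, and their part in each of the immune and lysosomal groups here was not tested.

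Lysosomal genes are known to share a short promoter sequence called the CLEAR element, bound by TFEB and MITF. Its core TCACGTG, on either strand, was looked for in the 250 bases before the annotated start of each gene in RefSeq promoters (GRCr8). It was present in 5 of 29 lysosomal and pump genes with a promoter in the table, or 17.2%, against 4.67% of 11219 tested genes. Those 5 were Galc, Ctsd, Glb1, Atp6v0d1 and Gaa. Galc, the hydrolase of galactosylceramide, had the largest rise among them (3.34 ± 0.17). Its window is shown for that reason, with the match in capitals, which here is a palindrome made of overlapping matches on both strands (GRCr8, chr6:123245560-123245709, minus strand, bases -150 to -1 from the start).
Galc: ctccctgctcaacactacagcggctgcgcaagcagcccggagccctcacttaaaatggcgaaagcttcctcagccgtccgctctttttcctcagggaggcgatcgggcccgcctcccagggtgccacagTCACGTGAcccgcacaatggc
The share of genes with the CLEAR core describes the listed members and is no test. The transcription factor genes Tfeb and Mitf themselves rose by 1.35 ± 0.14 and 1.32 ± 0.13. Their part in the lysosomal changes was not tested.

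Uptake and lipid handling rose with digestion. Of 18 scavenger and uptake receptor genes 15 rose and none fell (median 1.65), with 1 fall when any of ID gel 4, ID gel 5 or ID saline 2, 3 or 4 was left out and 2 falls under DESeq2, under RLE factors and on the deposited FPKM. Msr1, a receptor for modified lipoproteins, was at 190 to 478 CPM in gel (median 315) and 4.68 to 16.8 in saline (median 10.2), a log2 fold change of 5.00 ± 0.36, and the Fc receptors for IgG Fcgr2a and Fcgr2b rose by 5.20 ± 0.35 and 4.69 ± 0.25. The broad endocytic receptor Lrp1 rose by 0.98 ± 0.14. Mouse studies use genes such as Trem2, Spp1 and Gpnmb to define lipid-handling macrophages, and of 21 genes of that kind 16 rose. Trem2, a lipid receptor, rose by 6.31 ± 0.47, and Spp1, osteopontin, was at 139 to 280 CPM in gel (median 221) and 1.62 to 2.55 in saline (median 1.8), a log2 fold change of 6.73 ± 0.53. The lipid droplet gene Plin2 (-0.27 ± 0.15) and the fatty acid carrier gene Fabp4 (-0.02 ± 0.25) were not called, though Plin2 was called lower in a fit of the 12 ID libraries alone (-0.28, adjusted p = 0.039).

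Of 19 genes of osteoclasts and cell fusion 15 rose. Mmp9, Dcstamp and Ocstamp had the largest changes. Dcstamp and Ocstamp, both needed for fusion, had 0 counts in all saline libraries, and in gel they stood at 7.4 ± 3.59 and 9.77 ± 4.96 CPM, at least 228-fold and 301-fold above a floor of 3 counts over the saline group. Acp5, the tartrate-resistant phosphatase of osteoclasts, rose by a smaller 1.87 ± 0.15 and Ctsk, the osteoclast collagenase, by 1.90 ± 0.22. Tnfrsf11a, the osteoclast receptor RANK, rose by 0.63 ± 0.13, while its ligand Tnfsf11 was too low to test. Itgb3, the vitronectin receptor chain of osteoclasts, was not called (-0.04 ± 0.18). Cdh1, E-cadherin, which also marks epidermis, fell by 2.18 ± 0.25. In all, 5 genes were at 0 counts in all 6 saline libraries and at 1 CPM or more in all 6 gel libraries. Besides Dcstamp and Ocstamp they were Cxcr1, Tspan10 and Gtsf1. Gtsf1, known from germ cells, was at 1.93 ± 0.698 CPM, at least 59.6-fold above the floor. In the other direction there were 2 such genes, the hair genes Kb23 and Krtap3-1.

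The phagocyte oxidase, which makes superoxide in the phagosome, rose in its membrane and cytosolic subunits, and of 11 oxidase genes listed 8 rose. Ncf1 was at 619 to 2300 CPM in gel (median 1270) and 12.3 to 22.6 in saline (median 16.4), a log2 fold change of 6.37 ± 0.50, and the catalytic subunit Cybb rose by 4.91 ± 0.41. The oxidases of other cell types moved the other way. Nox1, of epithelium and smooth muscle, fell by 1.96 ± 0.31 and Duox2 by 0.80 ± 0.29. Targets of NRF2, the transcription factor of the oxidant response, rose in 16 of 18 (median 1.45). Hmox1, haem oxygenase, stood at 434 to 687 CPM in gel (median 641) and 26.3 to 49.9 in saline (median 36.1), a rise of 4.01 ± 0.22 log2 units, adjusted p = 1.05e-12, and the ferritin chains Ftl1 and Fth1 rose by 3.88 ± 0.30 and 2.98 ± 0.21. These 3 genes also serve iron handling. Me1, a lipogenic enzyme, fell by 1.77 ± 0.13, and Gclm, a classical target, was not called (-0.04 ± 0.13).

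Other iron genes split, with 8 of 16 higher and 5 lower, against 36.6% and 37.0% of all genes tested. Slc11a1, the metal exporter of phagosomes, was at 288 to 567 CPM in gel (median 452) and 1.89 to 5.63 in saline (median 2.25), a log2 fold change of 7.06 ± 0.58. The metalloreductases Steap1 and Steap2 rose by 4.69 ± 0.25 and 2.84 ± 0.13. Tfrc, the transferrin receptor through which cells take up iron, fell by 0.60 ± 0.12, and the ferroxidase Cp and the reductase Cybrd1 fell by 1.19 ± 0.17 and 0.91 ± 0.15.

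Receptors that sense microbes and debris rose almost throughout. Of 26 genes 25 rose and none fell (median 2.04). The largest rises were in C-type lectins. Clec4e, also called Mincle, a receptor for glycolipids and dead cells, was at 95.9 to 239 CPM in gel (median 171) and 0.0651 to 1.26 in saline (median 0.963), a log2 fold change of 7.68 ± 0.51, its partner Clec4d rose by 6.37 ± 0.40 and the glucan receptor Clec7a by 5.40 ± 0.37. Cd14, the lipopolysaccharide co-receptor, rose by 3.84 ± 0.25, and Tlr2 by 4.38 ± 0.24. The Toll-like receptor genes Tlr1 to Tlr9 were each called higher, though for Tlr3, which reads double-stranded RNA, the rise was 0.32 ± 0.13 and was lost without any of ID gel 3, ID gel 6, ID saline 3 or ID saline 4 (0.23 to 0.31, adjusted p = 0.0527 to 0.115). Nod1 was the member not called (0.06 ± 0.12).

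Complement genes went both ways, with 8 of 19 higher and 4 lower (median 0.09), against 36.6% and 37.0% of all genes tested. C3, the central component, was at 34.7 to 71.6 CPM in gel (median 51.6) and 2.86 to 7.39 in saline (median 3.3), a log2 fold change of 3.67 ± 0.33 (adjusted p = 1.02e-09), and receptors for its fragments rose, C3ar1 by 3.06 ± 0.25 and Vsig4, a macrophage receptor for C3b, by 5.27 ± 0.89. The 3 genes of C1q, made by resident macrophages, were not called, with C1qa at 0.09 ± 0.22, C1qb at 0.04 ± 0.23 and C1qc at -0.44 ± 0.25; C1qc was called lower without ID saline 4 (-0.56, adjusted p = 0.0465). C1qa levels were 125 to 246 CPM in gel (median 188) and 102 to 267 in saline (median 163), so the groups overlapped. The proteases C1s and C1r rose by 0.75 ± 0.16 and 0.48 ± 0.17, while C4a fell by 0.92 ± 0.24 and the inhibitor Cfi by 1.92 ± 0.54. Cfd, the factor also called adipsin and made by fat, fell by 0.91 ± 0.23.

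Chemokines and their receptors rose in most members, 15 of 20 in the CC family (median 3.11) and 15 of 22 in the CXC family (median 1.83). Ccl3, which draws monocytes through Ccr1, was at 17.4 to 49.6 CPM in gel (median 46.4) and 0 to 0.131 in saline (median 0.0676), a log2 fold change of 9.09 ± 0.79. Cxcl3 and Cxcl6, ligands of Cxcr2, rose by 8.84 ± 0.63 and 6.38 ± 0.55, and Cxcr2 itself fell by 0.74 ± 0.18. Cxcl12, made by dermal fibroblasts, had the highest level of its family in saline at 426 ± 76.8 CPM and fell to 270 ± 82.2 CPM in gel (-0.66 ± 0.16). Cxcr5, the receptor of B cells and follicular T cells, fell by 2.08 ± 0.27, and Cx3cl1, of epithelium and endothelium, by 1.16 ± 0.21. Pf4, known from platelets and macrophages, rose by 3.16 ± 0.27, where the platelet genes Gp1ba and Itga2b fell by 1.35 ± 0.41 and 0.83 ± 0.31, the falls among 11 red cell and platelet genes tested. The values of close paralogs such as Cxcl1, Cxcl2 and Cxcl3 are uncertain, since the handling of shared reads by the counting is not stated in these sources. Of 16 alarmin and antimicrobial genes 10 rose, among them Lcn2, the iron-chelator carrier lipocalin 2, at 28.7 to 123 CPM in gel (median 89) and 2.08 to 6.22 in saline (median 3.25), a log2 fold change of 4.56 ± 0.34, and S100a4 (2.84 ± 0.21), while the defensin Defb1 fell by 1.51 ± 0.23. Neutrophil markers (S100a8, S100a9, Csf3r, Cxcr2, Mpo and Elane) summed to 62.1 to 241 CPM in gel and 52.2 to 200 in saline, so their groups overlapped. S100a8 and S100a9 were not called (0.22 ± 0.39 and 0.54 ± 0.44), and without ID saline 1, the saline library with the highest sum, S100a9 was called higher (1.17, adjusted p = 0.00994).

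Of 11 tested genes of colony-stimulating factors and their receptors 7 rose and 3 fell. The receptors of myeloid cells rose, Csf2ra by 2.86 ± 0.19, Csf3r by 2.68 ± 0.24 and Csf1r by 1.63 ± 0.17. Csf1, the main macrophage growth factor, was at 231 to 346 CPM in gel (median 299) and 49.7 to 110 in saline (median 73.6), a log2 fold change of 1.92 ± 0.21. Il34, the other ligand of Csf1r, made by keratinocytes, fell by 0.46 ± 0.13. Kit and its ligand Kitlg fell by 1.05 ± 0.16 and 1.08 ± 0.20, and the genes of GM-CSF (Csf2), Il3 and Il5 were too low to test.

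Genes that restrain inflammation rose beside those that drive it. Of 24 tested 17 rose and 3 fell (median 2.23). Lilrb4, an inhibitory receptor of myeloid cells, was at 622 to 1160 CPM in gel (median 893) and 0.911 to 2.38 in saline (median 1.8), a log2 fold change of 8.99 ± 0.56, Cd300lf, another, rose by 6.47 ± 0.51, and Tnip3, a partner of the NF-kappa-B brake A20, by 6.16 ± 0.56. Il1rn, the interleukin 1 receptor antagonist, stood at 208 to 343 CPM in gel (median 279) and 33.2 to 81.5 in saline (median 64.4), a log2 fold change of 2.20 ± 0.21. The decoy receptor Il1r2 fell by 0.99 ± 0.19 and Tsc22d3, a mediator of glucocorticoids, by 0.66 ± 0.13. Of the co-inhibitors of T cells, Ctla4 and Tigit were too low to test and Pdcd1 and Lag3 were not called (-0.46 ± 0.40 and -0.63 ± 0.52), while Cd274, the ligand PD-L1, rose by 3.51 ± 0.20.

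Small-molecule mediators changed enzyme by enzyme. In the pathway of nitric oxide, itaconate, arginine and tryptophan 10 of 19 genes rose and 3 fell. Gch1, which starts the synthesis of the cofactor that Nos2 needs, was at 27.2 to 67.2 CPM in gel (median 48.6) and 4.69 to 6.41 in saline (median 5.07), a log2 fold change of 3.16 ± 0.20 while Nos2 rose by 7.10 ± 0.49, and Sat1, a polyamine acetyltransferase, rose by 2.06 ± 0.22. Nos1, the neuronal and muscle isoform, fell by 2.94 ± 0.39, and Tdo2, a tryptophan dioxygenase, by 2.89 ± 0.44. In prostaglandin and leukotriene synthesis 12 of 23 rose and 6 fell. Ptgs2, the inducible cyclooxygenase, was at 9.18 to 40 CPM in gel (median 17.1) and 4.2 to 9.11 in saline (median 6.46), a log2 fold change of 1.66 ± 0.29 (adjusted p = 2.24e-05). Pla2g2a, a secreted phospholipase, rose by 3.46 ± 0.26, Tbxas1, thromboxane synthase, by 3.58 ± 0.29 and the prostaglandin E2 receptor Ptger2 by 4.78 ± 0.28. Hpgds, the prostaglandin D2 synthase of mast cells and Th2 cells, fell by 1.63 ± 0.25, together with Ptger3 (1.34 ± 0.28) and the platelet-type lipoxygenase Alox12 (1.16 ± 0.22). The mast cell markers Cpa3, Cma1 and Ms4a2 were called lower as well, and Tpsab1 was not called (-0.08 ± 0.24). Together these markers summed to 18 to 44 CPM in gel and 61.5 to 96.8 in saline, and their part in that fall was not tested.

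Adhesion genes rose more often than clotting genes, without a test of that difference. Of 22 leukocyte adhesion genes 15 rose, led by Itgb2, the shared beta chain of leukocyte integrins, at 1100 to 2120 CPM in gel (median 1630) and 16.2 to 32.9 in saline (median 23.2), a log2 fold change of 6.09 ± 0.48, with its partners Itgax and Itgam at 4.19 ± 0.38 and 4.16 ± 0.33. Among clotting and fibrinolysis genes 9 of 20 rose and 5 fell, against 36.6% and 37.0% of all genes tested. Plaur, the urokinase receptor, was at 72.2 to 135 CPM in gel (median 116) and 3.97 to 7.53 in saline (median 6.46), a log2 fold change of 4.10 ± 0.25, and Anxa2, a plasminogen receptor, rose by 1.95 ± 0.14. F13a1, the clot-stabilizing transglutaminase found in resident dermal macrophages, fell by 1.09 ± 0.26, Procr, the protein C receptor, by 1.36 ± 0.22 and Vwf, of endothelium and platelets, by 1.15 ± 0.24.

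Transcription factors of myeloid cells rose in 24 of 27. Spi1, or PU.1, the factor that specifies myeloid cells, was at 103 to 169 CPM in gel (median 141) and 5.99 to 12.9 in saline (median 8.82), a log2 fold change of 3.93 ± 0.28, Atf3 rose by 3.72 ± 0.41 and Bhlhe41 by 3.58 ± 0.36. Nr4a1 fell by 2.98 ± 0.26 and Pparg, the factor of fat cells, by 0.47 ± 0.12. Immediate early genes, which peak within hours of a stimulus, did not move together, with 8 of 20 higher and 5 lower. Over all genes tested these shares were 36.6% and 37.0%. Jun (-0.12 ± 0.12) and Fos (0.63 ± 0.37) were not called, though Fos was in a fit of the 12 ID libraries alone (0.62, adjusted p = 0.00108), while Egr2 and Klf6 rose by 1.84 ± 0.20 and 1.68 ± 0.10.

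Clock genes changed without a common direction, 7 of 21 higher and 9 lower, against 36.6% and 37.0% of all genes tested. Nr1d1, the repressor REV-ERB alpha, was at 12.8 to 22.2 CPM in gel (median 17.5) and 51.6 to 77.2 in saline (median 58.4) and fell by 1.80 ± 0.19, an effect that was not called when the SC saline libraries took the place of the ID saline libraries (-0.40, adjusted p = 0.052). Hlf and Rora fell by 1.43 ± 0.29 and 0.99 ± 0.14. Dbp, a clock output gene, was at 23.4 to 31.3 CPM in gel (median 26.1) and 11.5 to 14.5 in saline (median 12.9), a log2 fold change of 1.06 ± 0.11 (adjusted p = 1.74e-08), and the repressor Bhlhe40 rose by 1.75 ± 0.17. Of the core genes Clock was not called (0.14 ± 0.09) and Arntl fell by 0.38 ± 0.10. No source used here gives the hour of sampling.

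The machinery of protein folding in the endoplasmic reticulum rose, 21 of 22 genes with 1 fall (median 0.95). Hspa5, the chaperone BiP, was at 806 to 1100 CPM in gel (median 995) and 340 to 459 in saline (median 393), a log2 fold change of 1.33 ± 0.10. Sdf2l1, a chaperone partner, rose by 2.84 ± 0.25 and Ddit3, or CHOP, a factor of prolonged stress, by 2.18 ± 0.18. The abundant chaperones Calr and Canx rose by 1.26 ± 0.14 and 0.97 ± 0.09. Chac1, a target of Atf4 that degrades glutathione, was the fall (1.75 ± 0.27), and Atf4 itself rose by only 0.34 ± 0.09.

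Genes of this response are known to carry the endoplasmic reticulum stress element, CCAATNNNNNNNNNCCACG on either strand, to which NF-Y and ATF6 bind. It was found within 250 bases before the start in 7 of 18 list members with a promoter in the table and in 17 of 11219 tested genes (0.152%). The 7 members were Hspa5, Calr, Creld2, Dnajc3, Hsp90b1, Canx and Xbp1, all of them called higher, at 0.83 log2 units for Xbp1 to the value of Hspa5. The list was drawn up from knowledge of this pathway, so the share describes its members and is no test. The windows of Hspa5 (GRCr8, chr3:38452866-38453015, plus strand, bases -150 to -1 from the start), Hsp90b1 (GRCr8, chr7:23012324-23012473, minus strand, bases -180 to -31 from the start) and Xbp1 (GRCr8, chr14:84604473-84604622, plus strand, bases -150 to -1 from the start) show the element at different distances, with each match in capitals and 2 matches in Hsp90b1.
Hspa5: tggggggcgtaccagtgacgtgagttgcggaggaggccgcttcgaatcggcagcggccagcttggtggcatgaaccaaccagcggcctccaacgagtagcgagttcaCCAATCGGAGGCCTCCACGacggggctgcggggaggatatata
Hsp90b1: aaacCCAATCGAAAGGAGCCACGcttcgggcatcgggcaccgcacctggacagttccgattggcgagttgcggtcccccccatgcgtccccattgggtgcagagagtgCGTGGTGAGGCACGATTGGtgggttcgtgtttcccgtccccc
Xbp1: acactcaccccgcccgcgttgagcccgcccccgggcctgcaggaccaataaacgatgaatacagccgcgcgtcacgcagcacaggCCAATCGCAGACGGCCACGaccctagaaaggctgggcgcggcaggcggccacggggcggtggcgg

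Antigen presentation by MHC class I and the immunoproteasome rose in all 12 genes tested (median 1.42). Psmb9, an immunoproteasome subunit, was at 45.4 to 61.1 CPM in gel (median 54.4) and 8.12 to 13.3 in saline (median 11.2), a log2 fold change of 2.28 ± 0.18, Tap1, which carries peptides into the endoplasmic reticulum, rose by 2.45 ± 0.16 and B2m, the shared light chain, by 1.98 ± 0.18. The core GAAANNGAAA of the interferon-stimulated response element, bound by IRF factors, lay within 250 bases before the start of 5 of 10 members in the table, namely Tap1, B2m, RT1-N3, Tap2 and Psme2, and of 2.63% of tested genes. That share describes the listed members and is no test. The genes of the IRF factors Irf1, Irf5 and Irf8 rose by 3.02 ± 0.26, 2.81 ± 0.18 and 3.11 ± 0.19. Their part in the class I changes was not tested. The windows of Tap1 (GRCr8, chr20:4668544-4668693, minus strand, bases -150 to -1 from the start) and Psme2 (GRCr8, chr15:33052752-33052901, minus strand, bases -150 to -1 from the start) are shown with the match in capitals, as a gene of peptide transport and a gene of the proteasome activator.
Tap1: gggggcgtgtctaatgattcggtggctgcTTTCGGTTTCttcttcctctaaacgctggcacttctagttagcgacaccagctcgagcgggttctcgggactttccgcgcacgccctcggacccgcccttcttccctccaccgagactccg
Psme2: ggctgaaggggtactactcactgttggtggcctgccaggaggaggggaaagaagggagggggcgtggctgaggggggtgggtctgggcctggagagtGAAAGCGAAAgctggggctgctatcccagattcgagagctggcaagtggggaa

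For other motifs the shares were as follows. The antioxidant response core TGACNNNGC was in 3 of 13 NRF2 targets (12.6% of tested genes), the hypoxia core ACGTGC in 3 of 15 hypoxia targets (6.36%), the muscle MEF2 site CTANNNNTAG in 1 of 21 muscle genes (2.74%) and the NF-kappa-B site GGGANNNNCC in 3 of 20 pattern receptor genes (22%). A match describes these letters only, and a window without a match says nothing about the factor.

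Energy metabolism changed isoform by isoform. Of 25 glycolysis and lactate transport genes 16 rose and 5 fell (median 0.89). Slc2a1, the glucose transporter GLUT1, stood at 334 to 818 CPM in gel (median 593) and 34.5 to 47.9 in saline (median 42.2) and rose by 3.86 ± 0.18 log2 units, adjusted p = 1.35e-13. Hk3, the hexokinase of myeloid cells, was at 179 to 342 CPM in gel (median 277) and 0.196 to 0.49 in saline (median 0.308), a log2 fold change of 9.66 ± 0.69, and Slc16a3, the lactate exporter MCT4, rose by 3.97 ± 0.40. For the same steps the liver and widely expressed forms rose while the muscle forms fell. Pfkl rose by 2.91 ± 0.14 and Pfkm fell by 4.19 ± 0.72, Pgam1 rose by 2.47 ± 0.15 and Pgam2 fell by 3.55 ± 0.62, and Eno1 rose by 2.69 ± 0.16 and Eno3 fell by 4.19 ± 0.97. Gapdh, shared by muscle and most other tissues, fell by 0.80 ± 0.19, and Ldha, at 943 to 1410 CPM in gel (median 1180) and 848 to 1020 in saline (median 952), was not called (0.31 ± 0.16), though it was in a fit of the 12 ID libraries alone (0.29, adjusted p = 0.0202). The summed level of skeletal muscle markers was lower in gel as well, and its part in these changes was not tested.

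**Figure D3:**
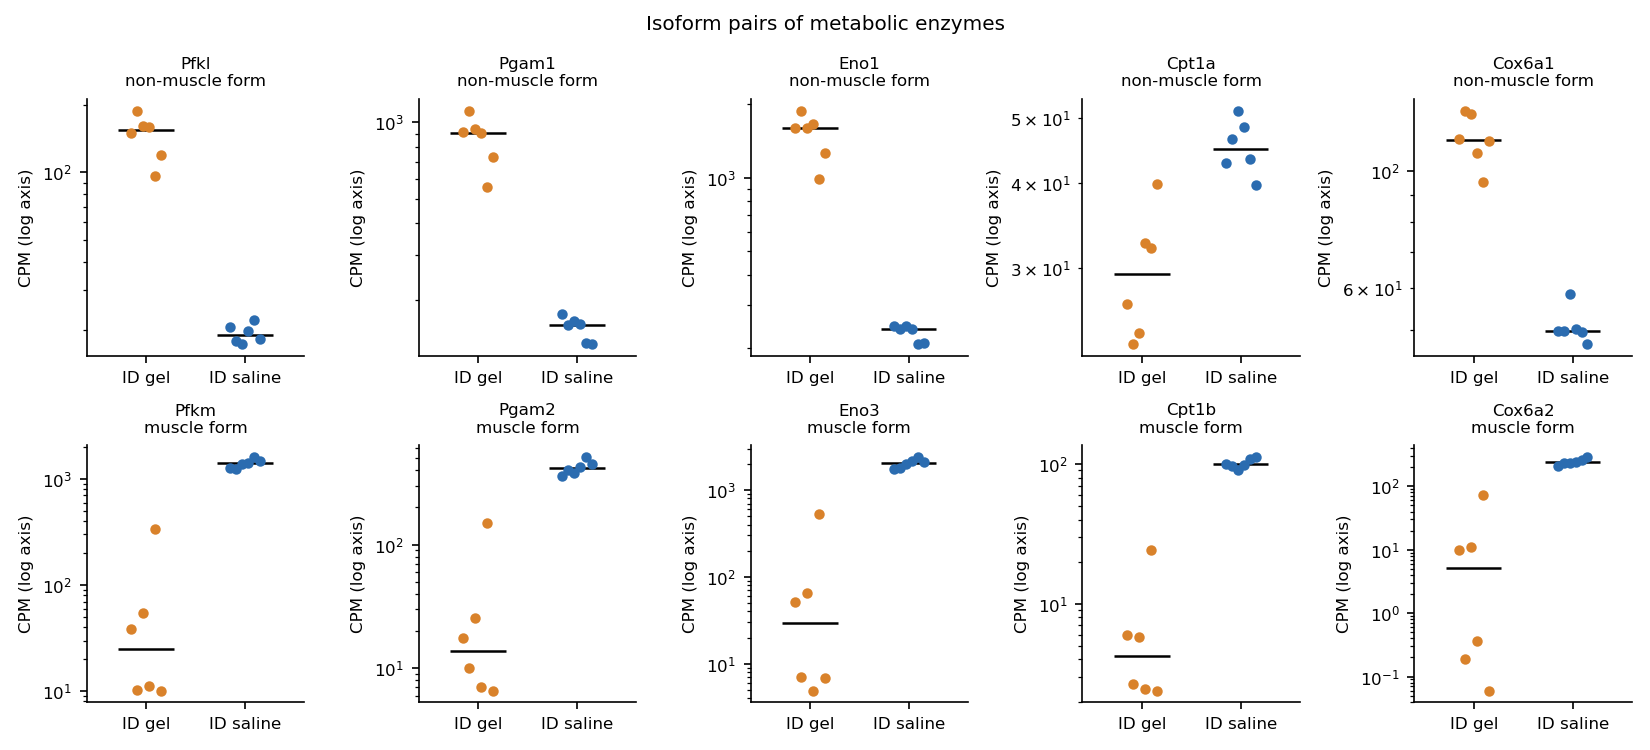
CPM on a log axis in each ID gel library (orange) and ID saline library (blue) for isoform pairs of 5 enzymes, the non-muscle form in the upper row and the muscle form in the lower row, with a bar at each group's median. The muscle forms are lower and widely spread among the gel libraries, with ID gel 5 highest.

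Hypoxia targets rose in 11 of 18 (median 0.73). After Ero1a came Ndrg1, which rose by 2.33 ± 0.17, and P4ha1, a collagen prolyl hydroxylase subunit, by 1.75 ± 0.13. Vegfa, the main vessel growth factor, was at 99.3 to 173 CPM in gel (median 130) and 78.2 to 97.1 in saline (median 89.4), a log2 fold change of 0.59 ± 0.14 (adjusted p = 0.000795), and the mitophagy genes Bnip3 (0.00 ± 0.17) and Bnip3l (0.20 ± 0.10) were not called, though Bnip3l was in the fit of the ID libraries alone (0.19, adjusted p = 0.00467). Epas1, a HIF alpha subunit prominent in endothelium, fell by 0.83 ± 0.17 and Hif1a rose by 1.07 ± 0.07.

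Fatty acid oxidation fell in all 19 genes tested (median -1.07). Ucp3, a mitochondrial carrier of muscle, fell by 4.37 ± 0.65 and Cpt1b, the muscle form of the carnitine transferase that admits fatty acids to mitochondria, by 3.79 ± 0.47, whereas the widely expressed form Cpt1a fell by 0.61 ± 0.13. Acadm, the medium-chain dehydrogenase, was at 88.7 to 133 CPM in gel (median 106) and 369 to 480 in saline (median 379), with no overlap between the groups (-1.91 ± 0.15 log2 units, adjusted p = 5.73e-11). The summed level of the list was 984, 951, 955, 1090, 1150 and 1030 CPM in ID gel 1 to 6. In saline it was 2270 to 2660 CPM. The part of muscle content in this fall was not tested. Nuclear genes of the respiratory chain fell in 20 of 25 (median -0.74). Here too the isoforms differed, with Cox6a2 of muscle down by 3.96 ± 1.04 and Cox6a1 up by 1.18 ± 0.11. Ppargc1a, the coactivator that raises mitochondrial content, fell by 3.23 ± 0.49. Genes of sterol and fatty acid synthesis split, 9 of 23 higher and 5 lower, against 36.6% and 37.0% of all genes tested. Insig1, a brake on cholesterol synthesis, was at 740 to 1940 CPM in gel (median 1260) and 138 to 179 in saline (median 159), a log2 fold change of 3.07 ± 0.17. Fasn and Elovl6 of fatty acid synthesis fell by 1.10 ± 0.21 and 1.30 ± 0.19. Markers of sebocytes, cells rich in such enzymes, summed to 1000 to 1690 CPM in gel and 1300 to 2360 in saline, with overlap. Of these 4 markers 3 were called lower, each without overlap, and Fasn was among them. The 1 marker not called made up the largest part of the sum.

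**Figure D4:**
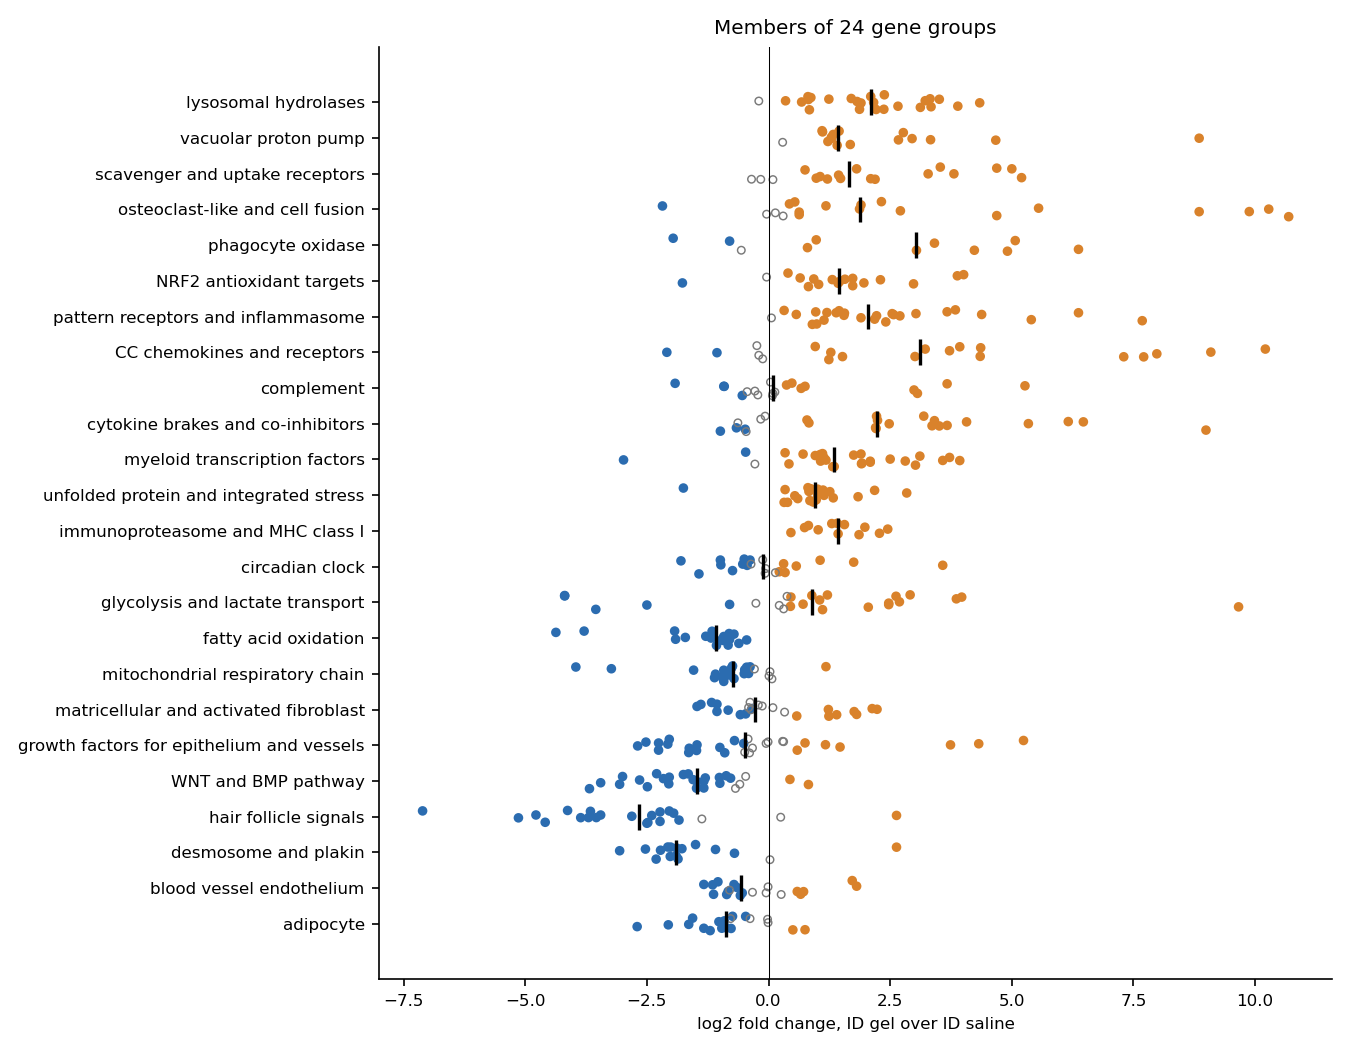
Log2 fold change of ID gel over ID saline for each tested member (points) of 24 gene groups, with filled points for genes at adjusted p under 0.05 and a bar at the group's median. The medians of lysosomal, proton pump and pattern receptor genes lie to the right of 0 and those of fatty acid oxidation, WNT and BMP, desmosome and hair follicle genes to the left, and several groups have members on both sides.

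Genes of hyaluronan and the small proteoglycans of the matrix went both ways. Of 20 genes 10 rose and 7 fell, against 36.6% and 37.0% of all genes tested. Lum, lumican, was at 925 to 1220 CPM in gel (median 1040) and 146 to 252 in saline (median 193), a log2 fold change of 2.40 ± 0.26 (adjusted p = 1.32e-08), while Dcn, decorin, the most abundant member, was not called at 4640 to 6300 CPM in gel (median 5690) and 3120 to 7210 in saline (median 4730), a log2 fold change of 0.18 ± 0.18 (adjusted p = 0.369). Tnfaip6, an inflammation-induced protein that links chains to hyaluronan, rose by 2.59 ± 0.22 and the hyaluronan receptor Cd44 by 2.46 ± 0.19. Hyaluronan synthases went both ways, Has1 up by 1.76 ± 0.26 and Has3, of epidermis, down by 2.51 ± 0.38. Acan, of cartilage and follicle sheaths, fell by 3.80 ± 0.63 and Omd by 2.72 ± 0.38.

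Matricellular and activated fibroblast genes were split as well, 8 of 24 higher and 9 lower, against 36.6% and 37.0% of all genes tested. Cthrc1, a marker of matrix-producing fibroblasts, was at 20.2 to 39.6 CPM in gel (median 27.3) and 4.82 to 7.72 in saline (median 6.3), a log2 fold change of 2.23 ± 0.27, Thbs1, which activates latent TGF-beta, rose by 2.13 ± 0.27 and Sfrp2 by 1.81 ± 0.34. Tnc, tenascin C, was at 29.9 to 163 CPM in gel (median 81.1) and 60.1 to 100 in saline (median 79.8) and was not called (0.09 ± 0.29 log2 units, adjusted p = 0.793). Inhba and Cilp fell by 1.06 ± 0.36 and 1.47 ± 0.30, Cilp not against SC saline (-0.48, adjusted p = 0.148). Among collagens outside the fibrillar class 1 of 22 rose, Col8a1 by 1.68 ± 0.19 (4 rose without ID gel 2, and 2 without ID gel 3 or without ID saline 2), and 10 fell, among them Col4a3 (2.51 ± 0.25) and Col4a6 (1.97 ± 0.27). The main basement membrane chains Col4a1 and Col4a2 were not called (-0.01 ± 0.23 and -0.01 ± 0.22). Fibroblast markers (Col1a1, Col1a2, Pdgfra, Dcn and Lum) overlapped between the groups, with sums of 22100 to 50600 CPM in gel and 21000 to 45200 in saline.

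Growth factors for epithelium and vessels went both ways. Among 29 genes 7 rose and 14 fell, against 36.6% and 37.0% of all genes tested. Fgf7 (chromosome 3, 113281283 to 113332929), the fibroblast-made keratinocyte growth factor, was at 150 to 330 CPM in gel (median 243) and 15.6 to 22 in saline (median 18.3), a log2 fold change of 3.74 ± 0.23 (adjusted p = 2.56e-12), whereas Fgf10, which binds the same receptor, fell by 2.26 ± 0.23. Every tested ligand of the EGF family was called lower, from 0.51 ± 0.19 for Hbegf to 2.69 ± 0.36 for Areg, with Tgfa at 2.06 to 7.42 CPM in gel (median 5.39) and 19.5 to 39.4 in saline (median 27.4), a log2 fold change of -2.52 ± 0.25. Hbegf lost its call without ID gel 1 (-0.40, adjusted p = 0.0612). Pgf, a placental relative of Vegfa, rose by 4.32 ± 0.19 and Fgf23, known as a bone hormone, by 5.24 ± 0.54.

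WNT and BMP pathway genes fell in 22 of 27 (median -1.48). Lef1, the transcription factor of WNT signals, was at 0.748 to 4.14 CPM in gel (median 3.1) and 15.5 to 41.1 in saline (median 28.5), a log2 fold change of -3.45 ± 0.38 (adjusted p = 2.7e-08), and Axin2, a general WNT target, fell by 1.48 ± 0.19. The ligand Bmp5 fell by 3.06 ± 0.65 and the WNT inhibitor Notum by 3.68 ± 0.55. Rspo1 and Dkk3 were the rises (0.82 ± 0.18 and 0.44 ± 0.18), and the rise of Dkk3 was lost without any of ID gel 3, 5 or 6 or ID saline 5 (0.34 to 0.40, adjusted p = 0.0559 to 0.0858). Hair follicle signals fell in 19 of 22 (median -2.65), with Shh, the signal of growing follicles, down by 3.70 ± 0.43, Hoxc13, a regulator of hair keratins, by 4.13 ± 0.45 and the inner root sheath gene Tchh by 4.59 ± 0.87. Prr9 had the largest fall, by 7.11 ± 1.17. Dsc2, a desmosomal cadherin, rose by 2.63 ± 0.23 against that trend. Hair shaft markers summed to 0.998 to 7.91 CPM in gel and 67.7 to 373 in saline. The part of follicle content in the WNT and BMP changes was not tested.

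Epidermal junctions and barrier lipids fell. Of 16 desmosome and plakin genes 14 fell and Dsc2 rose (median -1.89). Dsp, desmoplakin, which ties desmosomes to keratin, was at 136 to 371 CPM in gel (median 235) and 841 to 1350 in saline (median 1110), a log2 fold change of -2.22 ± 0.22 (adjusted p = 3.42e-09), and Pkp2 and Pkp3 fell by 3.06 ± 0.17 and 2.53 ± 0.31. Barrier lipid genes fell in 15 of 20, among them Elovl4, which makes very long chains (-2.14 ± 0.23), and Fa2h, which hydroxylates them (-2.76 ± 0.42). Ugcg, the synthase of glucosylceramide, rose by 2.34 ± 0.13. Keratins that epidermis induces after wounding did not rise. Krt6a was at 2.08 to 21.1 CPM in gel (median 12) and 20.6 to 59.7 in saline (median 29.9) and fell by 1.52 ± 0.43 (adjusted p = 0.00278), but not against SC saline (-0.64, adjusted p = 0.18). Krt17, also of follicles, fell by 2.73 ± 0.35 and Sprr1a by 2.78 ± 0.39. In that list Il24 and Ecm1 rose (1.07 and 0.90), and 12 of 18 fell. Keratinocyte markers summed to 1350 to 5070 CPM in gel, with 5070 in ID gel 4, and 4630 in the lowest saline library, ID saline 5.

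Vessel genes were mixed. Of 20 endothelial genes 10 fell and 5 rose (median -0.56), against 37.0% and 36.6% of all genes tested. Pecam1, a junction protein of endothelium also present on leukocytes, was at 69.7 to 235 CPM in gel (median 156) and 225 to 317 in saline (median 280), a log2 fold change of -0.86 ± 0.20 (adjusted p = 0.000429), and Tek, the angiopoietin receptor, fell by 1.33 ± 0.20, while its relative Tie1 rose by 1.72 ± 0.13 and Rgcc by 1.81 ± 0.21. Pericyte genes fell in 5 of 8, Rgs5 by 1.23 ± 0.22 and the channel subunit Abcc9, shared with muscle, by 2.20 ± 0.26, and Ndufa4l2, also a hypoxia target, rose by 2.01 ± 0.16. Of 8 lymphatic genes 4 fell and 1 rose, to be read against the same shares. The regulator Prox1 fell by 1.98 ± 0.34; it is also expressed in muscle. Pdpn, of lymphatics, fibroblasts and macrophages, rose by 1.40 ± 0.18. Endothelial markers (Pecam1, Cdh5, Vwf and Kdr) summed to 144 to 510 CPM in gel and 411 to 571 in saline, with overlap. Of them Kdr was called higher, while Pecam1, Cdh5 and Vwf were called lower. Smooth muscle markers (Acta2, Myh11, Cnn1 and Lmod1) summed to 70.3 to 247 CPM in gel and 405 to 554 in saline, without overlap.

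Of 18 Schwann cell and myelin genes 9 fell and 5 rose, where 37.0% of all genes tested fell and 36.6% rose. Cdh19, a cadherin of Schwann cells, was at 0 to 0.479 CPM in gel (median 0.335) and 1.05 to 2.63 in saline (median 1.31) and fell by 2.36 ± 0.41 (adjusted p = 1.77e-05), and Gfra3, also of Schwann cells, fell by 1.63 ± 0.29. Mbp was not called (-0.10 ± 0.14), and Pmp22, Ncam1 and Egr2, which other cells also express, rose. Neurotrophic and itch genes went both ways, 10 of 21 up and 8 down, to be read against the same shares. The neurotrophin gene Ntf3 was down by 2.93 ± 0.34. Of the itch and pain mediators Il6 was at 3.37 to 9.99 CPM in gel (median 4.46) and 0.0654 to 0.686 in saline (median 0.191), a log2 fold change of 4.27 ± 0.49 and Osm rose by 3.91 ± 0.33 with its receptor Osmr (1.56 ± 0.10), while the keratinocyte channel Trpv3 fell by 2.10 ± 0.25. Fat cell genes fell in 13 of 19 (median -0.87), Adipoq, adiponectin, from 198 ± 44.5 to 119 ± 22.2 CPM (-0.74 ± 0.31 log2 units, adjusted p = 0.0377) and Plin4 by 2.70 ± 0.30, and Lpl, which macrophages also make, rose by 0.75 ± 0.17. The call for Adipoq was lost without any of ID gel 2, 3, 5 or 6 or ID saline 2 or 6 (-0.74 to -0.64, adjusted p = 0.0551 to 0.0859). Adipocyte markers (Adipoq, Plin1, Cidec and Lep) summed to 157 to 274 CPM in gel and 241 to 452 in saline. Among 11 melanocyte genes 5 rose and 4 fell, where 36.6% and 37.0% of all genes tested did. Tyrp1 and Dct rose by 2.05 ± 0.56 and 1.56 ± 0.42, and Mlana and Kit fell by 1.02 ± 0.25 and 1.05 ± 0.16, Mlana not against SC saline (-0.39, adjusted p = 0.162). Melanocyte markers (Dct, Pmel, Tyrp1 and Tyr) summed to 20.2 to 69.7 CPM in gel and 7.33 to 27.8 in saline, with overlap between the groups.

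B and plasma cell genes were too low to test in 9 of 15 matched members, among them Ms4a1, and Jchain was not called (-0.00 ± 0.39). Fcrla rose by 5.33 ± 0.41 at 16.6 to 26.4 CPM in gel (median 21.5) and 0.374 to 0.998 in saline (median 0.474). Of 11 cytotoxic cell genes 5 rose and 0 fell, against 36.6% and 37.0% of all genes tested. The receptors Klrk1 and Klrb1a rose by 2.30 ± 0.21 and 2.04 ± 0.27, while Prf1, perforin, was not called (0.16 ± 0.40). Dendritic cell genes rose in 10 of 14, Ccr7, the receptor used to migrate to lymph nodes, by 3.72 ± 0.28 and Cd83 by 3.86 ± 0.34. Cd207, the langerin of Langerhans cells, fell by 1.50 ± 0.20 with Epcam (2.48 ± 0.26). T cell markers (Cd3e, Cd3d, Cd3g, Cd2 and Lck) summed to 19.7 to 27.4 CPM in gel and 7.43 to 9.41 in saline, without overlap. Of them Cd2 and Lck were called higher (2.05 ± 0.19 and 1.83 ± 0.20), whereas the CD3 chain genes overlapped between the groups, Cd3e and Cd3g were not called (0.48 ± 0.28 and 0.56 ± 0.30) and Cd3d was too low to test. B and plasma cell markers summed to 5.6 to 7.91 CPM in gel and 3.9 to 9.69 in saline, with overlap.

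Cell cycle genes rose by small amounts, 17 of 24 (median 0.55), with Rrm2, which makes deoxynucleotides, at 29.3 to 46 CPM in gel (median 37) and 12.3 to 22.1 in saline (median 17.2), a log2 fold change of 1.12 ± 0.24 (adjusted p = 0.000184). Mki67, a marker of dividing cells, rose by 0.65 ± 0.26, a call lost without any of ID gel 1, ID saline 5 or ID saline 6 (0.45 to 0.60, adjusted p = 0.0581 to 0.112). Top2a (-0.07 ± 0.21) and Ccnb1 (0.02 ± 0.19) were not called and the mitotic kinase gene Aurka fell by 1.15 ± 0.18. The saline group itself was spread for this list, from 468 to 683 CPM in sum.

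A set of 16 genes was used to compare the intradermal site with the subcutaneous site, through a test of the difference between the gel effects in the same fit. Over all genes 55.8% differed by this test, 50.8% were called for gel against saline at the SC site, and 3.22% differed between the ID and SC saline groups. For Hmox1 the gel effect was 4.01 ± 0.22 at the ID site and 0.92 ± 0.20 at the SC site, a difference of 3.09 ± 0.29 (adjusted p = 1.98e-08). The effects on Slc2a1 differed by 2.68 ± 0.23 and those on C3, not called at the SC site (0.30 ± 0.35), by 3.37 ± 0.47. The effects on Gpnmb were 6.17 ± 0.49 and 4.29 ± 0.45, so it was high at both sites, with a difference of 1.87 ± 0.56 (adjusted p = 0.00671). Adipoq and Krt6a had effects of opposite sign at the sites. Adipoq was at -0.74 ± 0.31 at the ID site and 1.40 ± 0.32 at the SC site (adjusted p = 0.000277 for the difference) and Krt6a at -1.52 ± 0.43 and 1.05 ± 0.42 (adjusted p = 0.000831). The difference was not called for Dcn (0.05 ± 0.25, adjusted p = 0.883), Tnc (-0.62 ± 0.41, adjusted p = 0.198) and Pecam1 (-0.64 ± 0.28, adjusted p = 0.054). None of the 16 genes was called between the saline groups, the nearest being Il1rn (0.47 ± 0.20, adjusted p = 0.181).

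**Figure D5:**
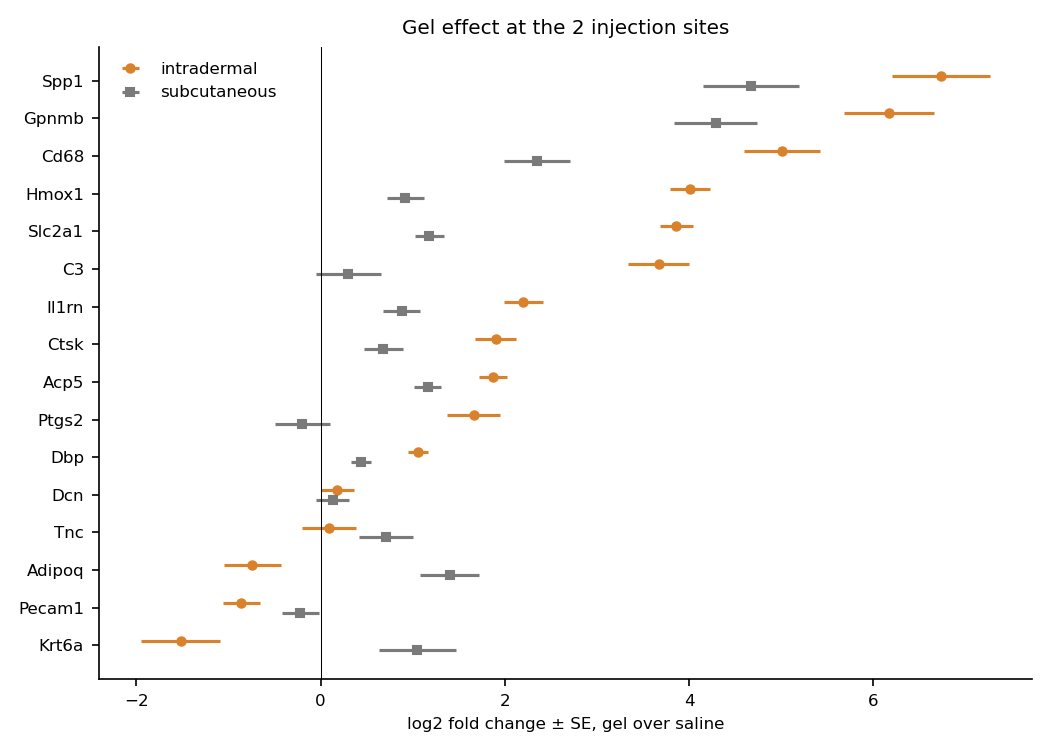
Log2 fold change ± SE of gel over saline for 16 genes at the intradermal site (orange) and the subcutaneous site (grey), 6 libraries a group. Hmox1, Slc2a1 and C3 lie far apart between the sites, Dcn lies near 0 at both, and Adipoq and Krt6a lie on opposite sides of 0.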

How the data were processed

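Bulk RNA-seq libraries were analysed from 1 deposited table that holds, for each of 23095 genes, raw read counts and FPKM values made by the authors for 24 libraries. The submitters' processing notes name Trimmomatic 0.36, DESeq2 1.12.4, StringTie 1.3.3b and FastQC 0.11.2, with the build Rnor_6.0. No source used here gives the aligner, or the counter with its handling of strand and of shared reads. The deposited FPKM values equal each gene's share of the library's counts divided by its length. Some gene names in the file come from a later build, and gene positions are the file's own. Library totals were 14024353 to 18821730 counts. Of the gene symbols 19985 came from the file and 367 from RefSeq tables.

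Columns were matched to samples by name. Counts were filtered with filterByExpr, scaled by TMM and tested with edgeR 4.0.16 (R 4.3.3) by the quasi-likelihood F test with 1 mean per group over all 24 libraries (20 residual degrees of freedom) and Benjamini-Hochberg adjustment over the 14763 genes kept. Dividing the log2 fold change by the root of F gave its SE. On simulated counts with 14444 genes, 67 were changed 1.5-fold, 67 were changed 2-fold and 66 were changed 4-fold. The procedure found 50.7%, 74.6% and 93.9% of these, with 2.67% of calls false. In the data a far larger share of genes was called (73.6%), so these rates need not hold there. Genes at 0 counts in a group were given a bound from a floor set at 3 counts for the whole group, which covers counting error only. Alternatives were DESeq2 1.42.0, limma 3.58.1 on voom values and on log2 of the deposited FPKM plus 1 or 0.1, other scalings, filters, a replicate block, a limit of 1 log2 unit, a fit of the 12 ID libraries, each library left out and, chosen after seeing the data, the SC saline libraries as controls.

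The gene lists, the marker lists and the members were chosen with earlier results of these data known, so list counts are descriptions and were not tested. Of 1136 list entries 63 were not matched. Genes were named by rule: the 8 rises and 8 falls with the largest log2 fold change over SE among called genes with a mean log2 CPM of 4 or more and no overlap, the 5 of highest FPKM in each group, the 5 largest gains and losses in CPM, in each list up to 3 rises and 3 falls of largest size and the 2 of highest CPM, the 16 genes compared between sites, and genes at 0 in a group and at 1 CPM or more in every library of the other. Some genes that the rule picks are not reported here. Outside that rule, and chosen after their values were seen, are Arntl, Atf4, Atp6v0a1, Atp6v0d1, Atp6v1b1, Axin2, Bnip3l, C1qa, C1qb, C1qc, C1r, Ccnb1, Cd2, Cd274, Cd3e, Cd3g, Clock, Col4a1, Col4a2, Cpt1a, Ctsc, Eno1, Fos, Galc, Gclm, Has1, Hbegf, Hif1a, Hoxc13, Hspa5, Irf1, Irf5, Irf8, Itgb3, Jchain, Jun, Lag3, Lck, Ldha, Mbp, Mki67, Nod1, Pdcd1, Pfkl, Pgam1, Plin2, Prf1, S100a8, S100a9, Shh, Tfeb, Tlr2, Tlr3, Tnfrsf11a, Tpsab1 and Xbp1.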

Additional observations from a re-analysis of the deposited data

Results flagged for a closer look

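Of 557 groups of 6 libraries, each a gene with values in the text in ID gel or ID saline, 43 (7.72%) held a library whose gap to the nearest of the others was over 0.625 of the group's range (Dixon's test). For independent and normally distributed values chance would flag about 1 in 20 such groups. CPM values need not be normal and many flags share a library, so 7.72% cannot be set against that rate. Each value is followed in parentheses by the median CPM of the other 5 libraries of its group. ID gel 5, the gel library with the highest skeletal muscle marker sum, stood above the other gel libraries in 15 of them. It held AABR07005775.1 at 3630 CPM (5.11), Acta1 at 5570 CPM (11.2), Bmp5 at 5.16 CPM (0.144), Ca3 at 2050 CPM (520), Cfi at 1.63 CPM (0.148) and Cilp at 104 CPM (32.3). It also held Cox6a2 at 72.6 CPM (0.37), Cpt1b at 24.4 CPM (2.68), Eno3 at 536 CPM (6.98), Myh4 at 4780 CPM (10.9), Nos1 at 3.27 CPM (0.718) and Nr4a1 at 28.5 CPM (13.1). Further values in ID gel 5 were Pfkm at 337 CPM (11.1), Pgam2 at 149 CPM (9.98) and Ucp3 at 28.6 CPM (1.18). The part of muscle content in these values was not tested.

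Other libraries stood apart in fewer genes each. ID gel 1 was high for Mki67 at 93.6 CPM (47.4) and Prr9 at 3.09 CPM (0.0799). ID gel 2 was high for Cd274 at 85.3 CPM (48.5) and Klrk1 at 17.8 CPM (10). ID gel 2 was low for Aurka at 14.5 CPM (19.6). ID gel 3 was high for Dcstamp at 14.4 CPM (6.2). ID gel 6 was high for Fgf23 at 29.5 CPM (6.71), Il6 at 9.99 CPM (4.36) and Plin2 at 208 CPM (162). ID saline 1 was high for Csf2ra at 38.3 CPM (27.6), Cxcl3 at 0.131 CPM (0), Gpnmb at 315 CPM (218), Hif1a at 143 CPM (119), Lcn2 at 6.22 CPM (3.21) and Tnip3 at 0.589 CPM (0.07). ID saline 2 was high for Cxcr2 at 12.4 CPM (8.47), Il6 at 0.686 CPM (0.187), Lag3 at 1.6 CPM (0.521) and Mbp at 23.4 CPM (17.8). ID saline 3 was high for Cox6a1 at 58.5 CPM (49.6). ID saline 3 was low for Plaur at 3.97 CPM (6.48). ID saline 4 was high for Gp1ba at 1.25 CPM (1.12). ID saline 4 was low for Pygl at 30.9 CPM (36.3). ID saline 5 was high for Fcrla at 0.998 CPM (0.457), Prf1 at 2.42 CPM (1.11), Slc16a3 at 17.7 CPM (11.3) and Vwf at 85.5 CPM (65.5). ID saline 5 was low for Rora at 20.6 CPM (28.1).

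The gel effect differed between the sites, by the test of the difference in edgeR, for 13 of 16 genes compared and 55.8% of all genes tested. Those 16 were chosen with earlier results of these data known, so their count describes them only. The ID effect minus the SC effect, in log2 units, was positive for C3 (3.37, adjusted p = 2.91e-06), Hmox1 (3.09, adjusted p = 1.98e-08), Slc2a1 (2.68, adjusted p = 1.01e-08), Cd68 (2.66, adjusted p = 9.12e-05), Spp1 (2.06, adjusted p = 0.0184), Gpnmb (1.87, adjusted p = 0.00671), Ptgs2 (1.86, adjusted p = 0.000609), Il1rn (1.32, adjusted p = 0.000419), Ctsk (1.22, adjusted p = 0.00137), Acp5 (0.70, adjusted p = 0.00726) and Dbp (0.61, adjusted p = 0.00262). It was negative for Adipoq (-2.14, adjusted p = 0.000277) and Krt6a (-2.57, adjusted p = 0.000831).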

How the results depend on the processing

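The count of called genes in the ID comparison (10868) lay between 10587 and 10941 with any 1 of the 12 ID libraries left out, with 5274 to 5408 higher and 5313 to 5533 lower, 2231 to 2382 higher by 1 log2 unit or more and 2876 to 3203 lower by as much. Tested against a limit of 1 log2 unit, 3932 genes were called, 1769 higher and 2163 lower, as fits a stricter test. The main test called 2288 genes higher and 2992 lower by 1 log2 unit or more. On log2 of the deposited FPKM these were 1768 and 2695 with a pseudocount of 0.1 and 1498 and 1988 with a pseudocount of 1. These settings change the scaling, the test and the filter together, and the cause was not tested. The deposited FPKM have no TMM factor, and with them the median over all genes moved to -0.13 (pseudocount 0.1) and -0.10 (pseudocount 1) and the share of calls that were higher from 49.7% to 42.6% and 42.8%. No gene called both in the main test and under DESeq2, voom, RLE factors, FPKM, other filters, the block or a left-out library changed direction. With the SC saline libraries as controls, an alternative chosen after seeing the data, 7 genes called in both tests changed direction. Among the named genes the sign reversed for Ctsc (0.40), called only against SC saline, and Mki67 (-0.11), called only in the main test. The cause was not tested. Against SC saline the calls for Arntl (-0.21), C1r (0.30), Cilp (-0.48), Il34 (-0.24), Krt6a (-0.64), Lpl (0.36), Mlana (-0.39), Nr1d1 (-0.40) and Tlr3 (0.16) were lost, and Bnip3 (0.44), C1qc (-0.59), Ldha (0.55), Nod1 (0.37), S100a8 (1.17) and S100a9 (1.75) were called. Under voom Acta1 (-9.76), Bnip3l (0.22), Cd3g (0.68), Clock (0.18), Fos (0.63), Ldha (0.29) and S100a9 (1.14) were called. On FPKM plus 0.1 Acta1 (-8.52), C1qc (-0.58), Ctsc (-0.38), Jun (-0.28) and Plin2 (-0.41) were called and Dkk3 (0.25), Mki67 (0.46) and Tlr3 (0.17) lost their calls, and the same genes changed with a pseudocount of 1. Tlr3 also lost its call under DESeq2 and RLE factors (0.29 in both). With the block Acta1 (-7.09) and Bnip3l (0.21) were called and Dkk3 (0.43) lost its call. Some group counts moved as well. Against the limit of 1 log2 unit, 62 of 280 named genes lost their call. There the rises among protein folding genes went from 21 to 5 and among cell cycle genes from 17 to 0. The falls among fatty acid oxidation genes went from 19 to 7. Those among respiratory chain genes went from 20 to 3 and among endothelial genes from 10 to 0. On both FPKM scales the falls among Schwann cell genes went from 9 to 5 and among oxidase genes from 2 to 0, and the rises among clock genes from 7 to 4. Against SC saline the rises among sterol and fatty acid synthesis genes went from 9 to 14 and the falls among red cell and platelet genes from 2 to 7. Of the difference between sites 8094 to 8341 genes were called under the other settings, and Pecam1 was called under DESeq2 (-0.71) and RLE factors (-0.71). The saline and gel libraries with the same number did not deviate together (correlations -0.166 to 0.131) and the labels do not tie them, so the numbers were not taken as pairs. With the replicate block 10918 genes were called in the ID comparison and 8250 between sites, where Pecam1 was called (-0.67). Depth limits genes near the filter, such as the 9 of 15 B and plasma cell genes too low to test.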
